A study of Mus with 2 samples.

Results

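The respiratory chain genes examined here were the 104 genes whose RNA encodes, or helps to assemble, the complexes of the mitochondrial inner membrane that burn fuel to make ATP. They were chosen by symbol (beginning with mt-, Ndufa, Ndufb, Ndufc, Ndufs, Ndufv, Uqcr, Cox4 to Cox8 or Atp5, or equal to Sdha, Sdhb, Sdhc or Sdhd) and by a minimum of 20 unique molecular identifiers (UMIs, 1 per captured RNA molecule) over both sections. Of 32285 features, 107 matched by symbol and 104 passed the minimum, 12 of them encoded by mitochondrial DNA (mtDNA) and 92 by nuclear DNA. The gene group was proposed with the section values in view, so those values are a description here. Cox8b with 32 UMIs, Cox6b2 with 46 and mt-Atp8 with 56 lay just inside the minimum. mt-Nd6, with 6 UMIs in control and 2 in rIL7 tissue, and Cox7b2 and Cox8c, both at 0 UMIs, lay outside it. RNA of mt-Nd6 is the one mtDNA-encoded messenger known to lack a poly(A) tail, and the assay captures RNA by that tail.

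The samples were 2 frozen sections of subcutaneous tumors grown from CT26, a mouse colon carcinoma line, in female BALB/c mice labelled as 6 to 8 weeks old. The control section came from a PBS-treated animal, and the rIL7 section from an animal given 10 µg of recombinant mouse IL-7 intraperitoneally on days 11 and 13 after transplantation. Both were labelled as day 15 tumors, and each group had 1 section, so no difference below has a replicate check and no test was run. Ranges in parentheses are 95% intervals for counting error alone, and differences between animals, sections and libraries are not covered by them.

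The respiratory chain passes electrons from NADH (complex I) and succinate (complex II) through complex III to oxygen at complex IV. The proton gradient built on the way drives the ATP synthase, complex V. Only a few core subunits of complexes I, III, IV and V are encoded by mtDNA, while complex II is wholly nuclear. The mtDNA genes are transcribed inside the organelle by a polymerase of their own as long strands that are cut into single messengers, so their RNA is made and degraded apart from that of the nuclear subunits.

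After the study's spot filter, 2219 control spots held 22951678 UMIs and 1950 rIL7 spots held 25729233 UMIs. The median spot held 9623 UMIs in control and 12922 in rIL7 tissue. No spot was removed by the limit of 10% mitochondrial UMIs. A Visium spot covers several cells, and 1702 spot barcodes occurred in both sections, as grid positions are shared by design. The pair of CT26 markers, Rpl39l and Baiap2l1, summed to 1293 UMIs per 1000000 UMIs of the section (CPM) in control and 1043 CPM in rIL7 tissue. Skeletal muscle RNA summed to 92.9 CPM and 13.3 CPM, and 181 control spots against 4 rIL7 spots held 3 or more muscle UMIs.

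The mtDNA-encoded genes lie on chromosome MT, and their positions in GRCm38 are given because they show which counts can be told apart. From the first position onward they run mt-Nd1 (2751 to 3707), mt-Nd2 (3914 to 4951), mt-Co1 (5328 to 6872), mt-Co2 (7013 to 7696), mt-Atp8 (7766 to 7969), mt-Atp6 (7927 to 8607) and mt-Co3 (8607 to 9390). The others are mt-Nd3 (9459 to 9806), mt-Nd4l (9877 to 10173), mt-Nd4 (10167 to 11544), mt-Nd5 (11742 to 13565) and mt-Cytb (14145 to 15288). mt-Atp8 and mt-Atp6 overlap by 43 bases and mt-Nd4l and mt-Nd4 by 7 bases. Each of these pairs is known to share a messenger, so the small counts of mt-Atp8 and mt-Nd4l are uncertain. The nuclear genome also holds copies of mtDNA, and reads shared with them were not resolved here.

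RNA of the mtDNA-encoded genes was lower in the rIL7 section, while that of the nuclear-encoded genes was at nearly the same level in both. The 12 mtDNA-encoded members summed to 58120 UMIs in control, 2532 CPM (2512 to 2553), and to 39194 UMIs in rIL7 tissue, 1523 CPM (1508 to 1538), which was 1.66-fold lower (1.64 to 1.68). All 12 were lower in the rIL7 section. A gene was counted as past the limit when its larger CPM exceeded the smaller by at least 25%, and all 12 passed it, where 13.8% of the 14313 genes with at least 20 UMIs were lower past it. Among the 7525 genes with at least 1000 UMIs, 7 of the 9 members with that many were among the 50 with the lowest ratios. One control quadrant, picked out after its map was seen, carried much of the difference, and without it the set was 1.20-fold lower, short of the limit. With all spots, the median log2 ratio of the 12 members was -0.99, against 0.00 over the 14313 genes. The 92 nuclear-encoded members summed to 24792 CPM in control and 24595 CPM in rIL7 tissue, a log2 ratio of -0.01 (-0.02 to -0.01). There were 10.2 mtDNA-encoded UMIs per 100 nuclear-encoded UMIs in control and 6.19 in rIL7 tissue. Mitochondrial UMIs made up 0.253% and 0.152% of all UMIs, counted over the 12 members.

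**Figure D1:**
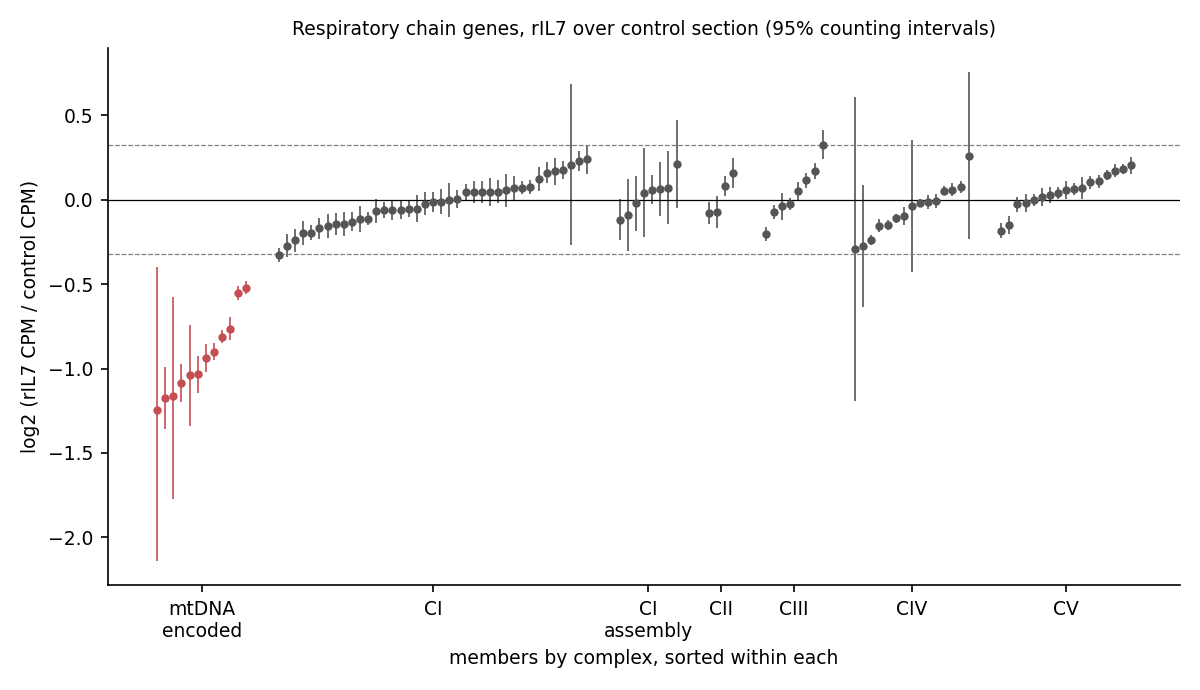
The log2 ratio of rIL7 over control CPM is plotted for each member by complex (C), with 95% counting intervals and dashed lines at a difference of 25%; Cox8b, at 0 in the rIL7 section, is not drawn. All 12 mtDNA-encoded members lie below the lower dashed line, and the nuclear-encoded members lie around 0.

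Summed by complex, the mtDNA-encoded members had different ratios. The 6 complex I members, parts of the NADH dehydrogenase core, summed to 350.5 CPM in control and 172.7 CPM in rIL7 tissue, 2.03-fold lower (1.96 to 2.11). mt-Cytb, the cytochrome b of complex III, was at 391 CPM and 209 CPM, 1.87-fold lower (1.80 to 1.93). The complex IV members mt-Co1, mt-Co2 and mt-Co3, which form the catalytic core of cytochrome c oxidase, summed to 1169 CPM and 787 CPM, 1.49-fold lower (1.46 to 1.51). The complex V members mt-Atp6 and mt-Atp8, from the membrane part of the ATP synthase, summed to 622 CPM and 354 CPM, 1.76-fold lower (1.71 to 1.80). The counting interval of the complex IV sum lay apart from those of the other complexes, with the smallest difference between sections, while that of mt-Co2 alone (1.62 to 1.78) overlapped that of complex V.

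Among the complex I members, mt-Nd1 was at 83.3 CPM in control and 39.3 CPM in rIL7 tissue (2.12-fold lower), and mt-Nd2 at 84.4 CPM and 41.2 CPM (2.05-fold lower). mt-Nd4 was at 136 CPM and 70.8 CPM (1.92-fold lower), and mt-Nd3 at 32.4 CPM and 14.4 CPM (2.25-fold lower). All of these are membrane subunits of complex I, and each was lower in every quadrant of the rIL7 section than in every quadrant of the control. mt-Nd5 had 264 and 144 UMIs (2.06-fold lower), mt-Nd4l 74 and 37 UMIs (2.24-fold lower), and mt-Atp8 38 and 18 UMIs (2.37-fold lower, 1.32 to 4.41). These 3 rest on few molecules, and their quadrants overlapped.

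mt-Co1 and mt-Co3 differed least between the sections among the 12. mt-Atp6, with the most UMIs of the set, was at 620.2 CPM in control and 353 CPM in rIL7 tissue (1.75-fold lower). mt-Co1, the catalytic subunit of complex IV, was at 503 CPM and 351 CPM (1.43-fold lower), and mt-Co3 at 474 CPM and 323 CPM (1.47-fold lower). The quadrants of these 3 overlapped between the sections. mt-Co2, which takes electrons from cytochrome c, was at 192 CPM and 113 CPM (1.70-fold lower), and its quadrants did not overlap. In all, 6 of the 9 members with at least 1000 UMIs had quadrants lying wholly lower in the rIL7 section, where 11.7% of such genes did. Quadrants, made by splitting each section at its median array row and column, are neighbouring parts of 1 section and not replicates.

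A large share of the difference lay in one connected area of the control section. The 4 control quadrants had 3684, 2271, 1538 and 1617 mtDNA-encoded CPM, and the 4 rIL7 quadrants 1349, 1796, 1473 and 1476 CPM. The first of these, of low array rows and low array columns, was the highest, and the third and the fourth control values lay within the range of the rIL7 quadrants. Without that first quadrant, the control section had 1824 CPM and the rIL7 section was 1.20-fold lower, short of the 25% limit. Then 11 of 12 members were lower and 9 past the limit, where 15.7% of genes with at least 20 UMIs were. mt-Co3 turned to a log2 ratio of 0.04, and mt-Co1 and mt-Atp6 shrank to -0.08 and -0.27. mt-Nd1 at -0.70, mt-Nd2 at -0.65, mt-Nd3 at -0.64, mt-Nd4 at -0.55 and mt-Cytb at -0.51 remained past the limit. Leaving out any other control quadrant, or any of the rIL7 quadrants, gave folds from 1.59 to 1.85 lower.

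**Figure D2:**
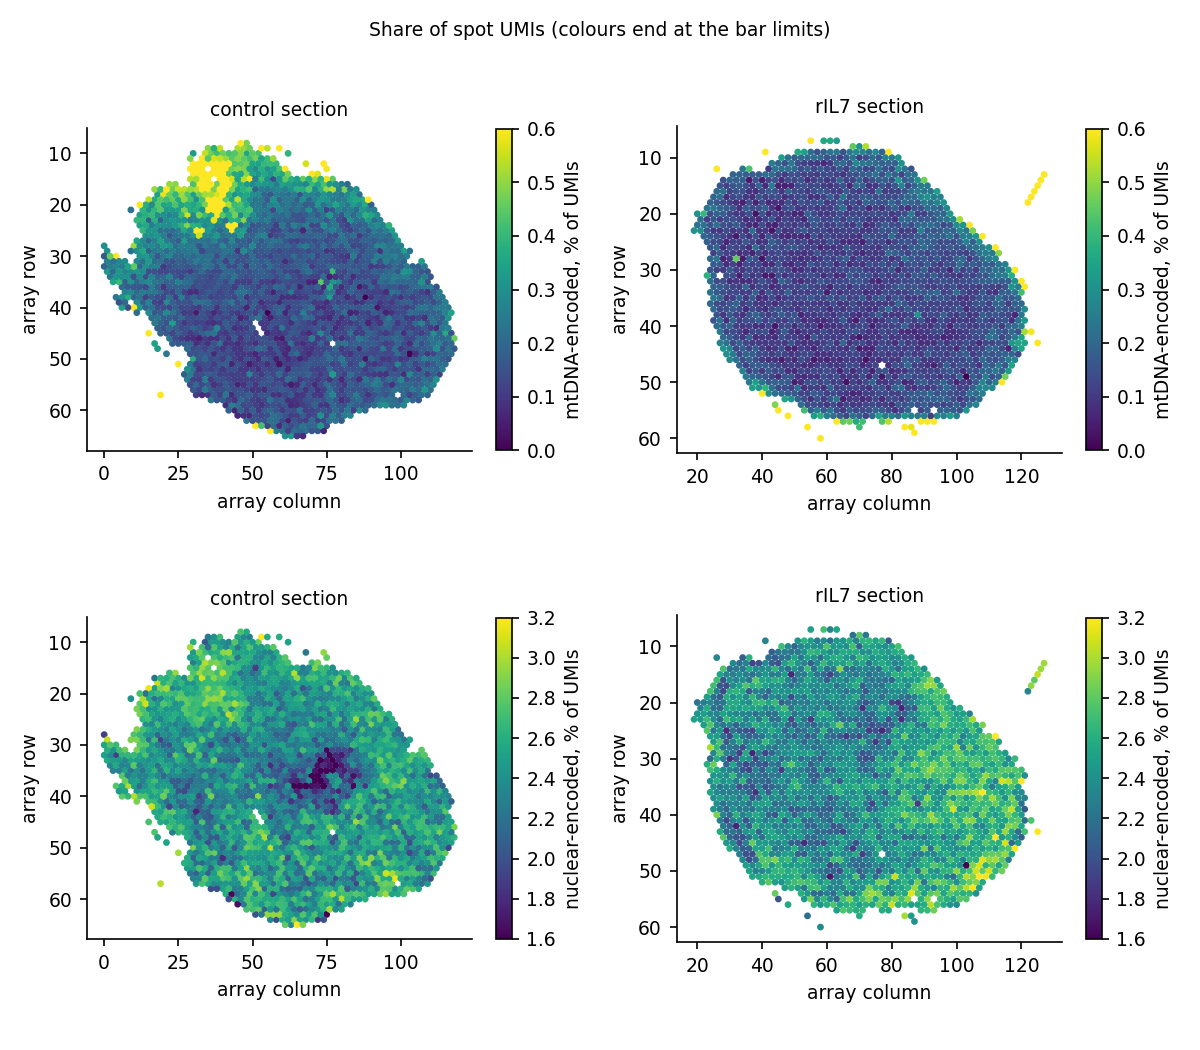
Each point is 1 spot at its array row and column, coloured by the share of its UMIs (%) from the 12 mtDNA-encoded (top) or 92 nuclear-encoded members (bottom), with the control section on the left. The control section has an area of high mtDNA-encoded share at low rows and low columns, and a patch of low nuclear-encoded share near its centre, while in the rIL7 section high mtDNA-encoded shares lie along the outline.

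A rectangle drawn around this area on the map, array rows 8 to 26 and columns 28 to 50, held 196 spots with 5399 mtDNA-encoded CPM against 2012 CPM in the rest of the control section, 2.68-fold higher. It held 32.8% of the mtDNA-encoded UMIs and 15.4% of all UMIs of the section. The 9 mtDNA-encoded members with at least 1000 UMIs were all higher past the limit inside, where 6.52% of genes with at least 1000 UMIs were. As the rectangle was drawn from these values, the comparison is a description. The nuclear-encoded members had 26399 CPM inside and 24501 CPM outside. The median spot held 17838 UMIs inside and 9257 outside, macrophage markers (8 genes) summed to 3482 and 2157 CPM, cytosolic ribosomal protein genes to 215065 and 180423 CPM, and nuclear-retained RNA (4 long non-coding RNAs) to 820.3 and 1217 CPM. The part of depth, cell types and RNA quality in the mtDNA-encoded values there was not tested.

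Nuclear-encoded members differed little between the sections in any complex. Of the 92 members, 44 were higher and 48 lower in the rIL7 section. Only Uqcrc2 was higher past the limit, where 14.3% of genes with at least 20 UMIs were, and only Ndufa4 and Cox8b were lower past it. Of the 82 with at least 1000 UMIs, 1 was past the limit in each direction, against 5.55% of such genes higher and 5.86% lower. Uqcrc2, a core subunit of complex III (chromosome 7, 120635189 to 120659523), was at 84.5 CPM in control and 106 CPM in rIL7 tissue, 1.253-fold higher. Its quadrants were all higher in the rIL7 section (104 to 110.3 CPM) than in the control (81.9 to 88.4 CPM). Of the 82 members, 8 had quadrants wholly lower and 8 wholly higher in the rIL7 section. Among all 7525 genes with at least 1000 UMIs, 884 lay wholly lower and 763 wholly higher, so the nuclear-encoded members were near that share.

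Complex I, the NADH dehydrogenase, had 39 nuclear-encoded members, of which 17 were higher and 22 lower in the rIL7 section, summing to 7433 and 7236 CPM. Ndufa4 (chromosome 6, 11900372 to 11907450), named for complex I and now assigned to complex IV, was at 423 CPM in control and 337 CPM in rIL7 tissue, 1.26-fold lower. Its quadrants were all lower in the rIL7 section. Ndufb7, an accessory subunit (chromosome 8, 83566758 to 83571623), had the highest ratio, with 84.3 and 99.6 CPM, 1.18-fold higher, and its quadrants were all higher. The 8 complex I assembly factors, which build the complex without staying in it, summed to 239 and 242 CPM. Among them Ndufaf2 had the lowest ratio, with 47.4 and 43.6 CPM.

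Complex II, the succinate dehydrogenase of the tricarboxylic acid cycle, is built from nuclear genes alone and serves as a comparison within the chain. Its 4 members summed to 506 CPM in control and 512 CPM in rIL7 tissue. Sdhb, the iron-sulfur subunit, was at 173 and 164 CPM, and Sdhc, a membrane anchor, at 82.7 and 92.2 CPM, with overlapping quadrants. The 8 nuclear-encoded complex III members summed to 2370.1 and 2375 CPM, and Uqcrq had the lowest ratio among them (429.8 and 374 CPM).

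For complex IV, 12 of 16 nuclear-encoded members were lower in the rIL7 section, and they summed to 7685 and 7358 CPM. Cox4i1, the common isoform of a regulatory subunit (chromosome 8, 120668225 to 120674209), was at 931 and 789 CPM, 1.18-fold lower, and its quadrants did not overlap. For complex V, 12 of 17 members were higher, and they summed to 6560 and 6872 CPM. Of all 14313 genes with at least 20 UMIs, 7215 were lower and 7098 higher. Among the nuclear-encoded members of complexes IV and V, only Cox8b was past the limit. Atp5k, which helps ATP synthase form dimers (chromosome 5, 108433246 to 108434399), was at 265 and 305 CPM, 1.15-fold higher, and Atp5h, a stalk subunit (chromosome 11, 115415691 to 115419919), at 354 and 312 CPM, 1.14-fold lower. The quadrants of both lay apart, but both were named for extreme ratios, and the nuclear-encoded members lay apart about as often as all genes. The mtDNA-encoded and nuclear-encoded subunits of complexes IV and V therefore had different ratios between these 2 sections.

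Several subunits exist as paired isoforms, with a common form and a form of muscle, lung or low-oxygen tissue. The common forms Cox6a1 (380.5 and 378 CPM), Cox6b1 (398 and 394 CPM), Cox7a2 (491 and 518 CPM), Cox8a (1170.1 and 1083 CPM) and Cox7a2l, a supercomplex assembly factor (249.8 and 233 CPM), stayed within the limit. The 3 genes for the same ATP synthase c-subunit also did, Atp5g1 at 227 and 205 CPM, Atp5g2 at 511 and 534 CPM, and Atp5g3 at 313 and 319 CPM. The muscle form Cox8b had 32 UMIs in control and 0 in rIL7 tissue, where a count of 0 allows up to 3, so it passed the minimum through the control section alone. Of those 32 UMIs, 22 lay in the 181 control spots with 3 or more muscle UMIs, which held 7.02% of all UMIs. The section without Cox8b was thus also the section with fewer muscle spots.

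Like Cox8b, the other muscle forms were not confined to muscle spots. Cox6a2 had 107 and 117 UMIs, of which 25 and 2 lay in muscle spots, and Cox7a1 had 137 and 127 UMIs, of which 13 and 1 did. In the control section Cox6a2 was nonetheless higher in muscle spots (15.5 CPM) than in other spots (3.84 CPM), and Cox7a1 was at 8.07 and 5.81 CPM. Cox4i2, the lung form known to respond to low oxygen, had 62 and 83 UMIs, and Cox6b2, the testis form, 24 and 22 UMIs. Ndufa4l2, an isoform of Ndufa4 known to be induced by low oxygen, had 68 and 88 UMIs. For these 5 isoforms the section ratio had an interval that included no difference.

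By distance from the outline of the tissue, mtDNA-encoded RNA was higher at the edge of both sections. Spots within 2 grid steps of the outline of the largest piece of tissue were called edge (401 control and 330 rIL7 spots), and deeper spots interior. The mtDNA-encoded members of the control section summed to 3223 CPM in edge spots and 2352 CPM in interior spots, 1.37-fold higher (1.34 to 1.40) at the edge. Those of the rIL7 section summed to 2334 and 1306 CPM, 1.79-fold higher (1.74 to 1.83). The nuclear-encoded members differed by 1.05-fold and 1.04-fold. With all quadrants included, the rIL7 section was therefore lower in both places, by 1.38-fold at the edge and 1.80-fold in the interior. Without the low row, low column quadrant, the control edge was at a log2 ratio of 0.65 over its interior. The rIL7 section was then 1.20-fold lower over all positions, and edge and interior are not compared between the sections without that quadrant.

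Step by step, mtDNA-encoded RNA declined inward along different courses. Control spots had 3399, 3047, 2967, 2681, 2274, 1724 and 1486 CPM at steps 1, 2, 3 to 4, 5 to 7, 8 to 11, 12 to 15 and 16 to 22. Those of the rIL7 section had 2748, 1978, 1586, 1354, 1238, 1198 and 1202 CPM, the last at steps 16 to 21. The control series declined at every step to the centre, while the rIL7 series lost most of its height within the first few steps and was then level. Median spot depth also declined inward in control, from 10181 UMIs at step 1 to 7423 at the centre, and increased in rIL7 tissue from 9490 to 16333.

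**Figure D3:**
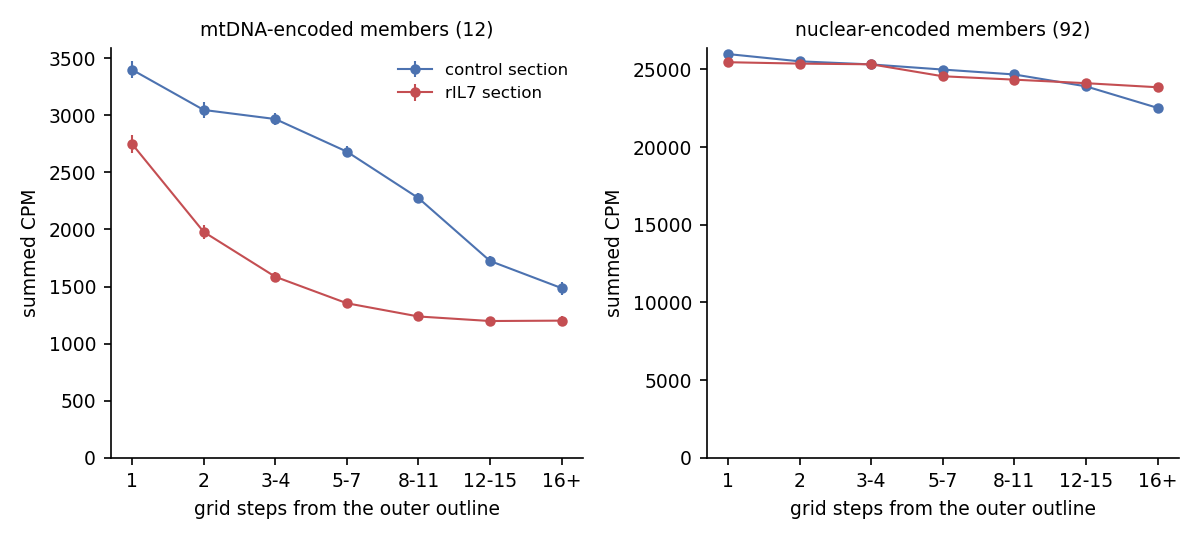
Summed CPM of the 12 mtDNA-encoded (left) and 92 nuclear-encoded members (right) is plotted against grid steps from the outer outline in each section, with 95% counting intervals. The mtDNA-encoded sum falls from 3399 to 1486 CPM in control and from 2748 to 1202 CPM in rIL7 tissue, while the nuclear-encoded sum stays between 22526 and 25989 CPM.

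Of the 9 mtDNA-encoded members with at least 1000 UMIs, 6 were higher past the limit at the edge in control, where 2.41% of such genes were, and 8 in rIL7 tissue, where 9.28% were. mt-Co1 had the largest edge ratio of the 12 in both sections, with 694 CPM there and 454 CPM inside in control, and 629 and 285 CPM in rIL7 tissue (log2 ratios of 0.61 and 1.14). mt-Nd1 was at 108 and 77.0 CPM in control and 65.0 and 30.9 CPM in rIL7 tissue (log2 ratios of 0.49 and 1.07). mt-Nd2 had small edge ratios, with log2 values of 0.17 and 0.32, as did mt-Nd4 with 0.25 and 0.39. Members of the same complex thus differed in how steeply they declined inward.

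**Figure D4:**
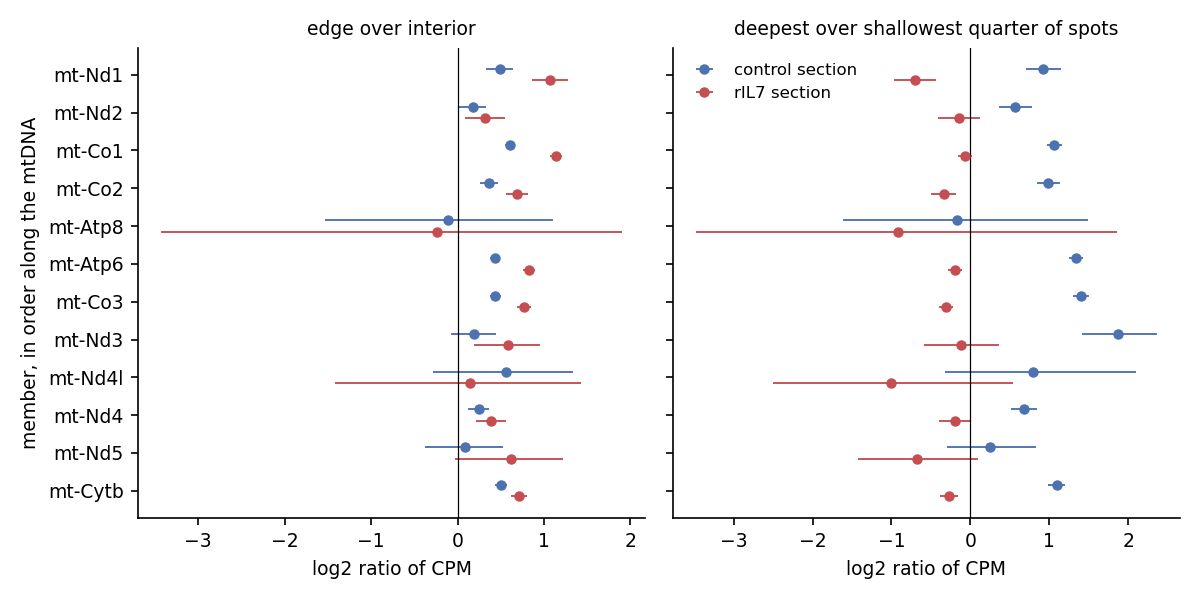
The log2 ratio of CPM is plotted for each mtDNA-encoded member for edge over interior (left) and for the deepest over the shallowest of 4 equal groups of spots by UMIs (right), with 95% counting intervals. Edge ratios lie above 0 in both sections for all but mt-Atp8, and depth ratios lie above 0 in control for all but mt-Atp8 and below 0 in rIL7 tissue.

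Few nuclear-encoded members differed with distance. Of the 82 with at least 1000 UMIs, 0 passed the limit in either direction at the control edge, where 2.41% of such genes were higher and 7.47% lower. At the rIL7 edge 3 were higher and 0 lower, smaller shares than the 9.28% of such genes higher and 17.9% lower. Most nuclear-encoded members were slightly higher at the edge, 69 of 92 in control and 61 of 91 in rIL7 tissue. Of genes with at least 20 UMIs, 5763 of 14177 and 6463 of 14138 were. Complex V members leaned the same way, with 17 of 17 higher at the edge in control and 16 of 17 in rIL7 tissue, all but Atp5k within the limit. The 3 past it in the rIL7 section were Ndufb7 (134 CPM at the edge, 93.1 inside), Ndufs8, an iron-sulfur subunit of complex I (129 and 102 CPM), and Atp5k (369 and 292 CPM). Their control values were log2 edge ratios of 0.25, 0.16 and 0.20. The highest of the 82 in the control were Atp5g1 (263 and 218 CPM), Ndufa12, an accessory complex I subunit (146 and 122 CPM), and Uqcrq (491 and 414 CPM).

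The lowest edge ratios of the 82 nuclear-encoded members with at least 1000 UMIs stayed within the limit. For rIL7 tissue they were those of Ndufs1, the largest iron-sulfur subunit of complex I (60.1 and 73.5 CPM), Ndufaf7 (23.4 and 28.02 CPM) and Cox6c (1379 and 1601 CPM). For control tissue they were those of Ndufaf7 (23.0 and 26.8 CPM), Sdhc (74.0 and 85.0 CPM) and Ndufab1, the mitochondrial acyl carrier protein (152 and 163 CPM). Among members with fewer UMIs, Cox8b (0.224 and 1.69 CPM, control) and Ndufaf6, an assembly factor (11.0 and 15.2 CPM, rIL7), both named after their values were seen, had lower edge ratios. Of the low-count isoforms, Ndufa4l2 was higher at the edge in both sections, at 5.37 and 2.39 CPM in control and 9.68 and 2.27 CPM in rIL7 tissue, with log2 ratios of 1.17 (0.38 to 1.91) and 2.10 (1.45 to 2.74). Cox6a2 was higher at the rIL7 edge (11.7 and 3.28 CPM). Endothelial markers (5 genes) summed to 72.9 and 56.6 CPM at the control edge and interior and to 120.3 and 49.6 CPM in the rIL7 section. Their part in the isoform values was not tested.

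The sets also differed in how they followed spot depth, the total UMIs of a spot. In the control section, the 4 equal groups of spots from shallowest to deepest had 1677, 1654, 1905 and 3719 mtDNA-encoded CPM, so that the deepest group was 2.22-fold higher (2.15 to 2.28) than the shallowest. In the rIL7 section the groups had 1734, 1550, 1442 and 1485 CPM, and the deepest was at a log2 ratio of -0.22 (-0.27 to -0.18). The nuclear-encoded members increased with depth in both, from 23680 to 25861 CPM in control and from 23936 to 25171 CPM in rIL7 tissue. The spot totals include the members themselves.

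All 9 mtDNA-encoded members with at least 1000 UMIs were higher past the limit in the deepest control group, where 7.28% of such genes were. Among rIL7 spots 0 of 9 were higher, where 2.72% were, and 2 were lower, mt-Nd1 and mt-Co2, where 13.0% were. mt-Nd3 had the highest depth ratio of all 7524 genes compared in the control section, at 49.2 and 13.4 CPM in the deepest and shallowest groups. mt-Co3 ranked next, at 742 and 279.8 CPM, and mt-Atp6 after it, at 937 and 371 CPM. Of the 82 nuclear-encoded members, 12 were higher past the limit in the deepest control group and 0 lower, where 15.8% of genes were lower, and 1 was past the limit in each direction in the rIL7 section. Sdhc was among those with less in deep control spots, at 76.0 and 91.5 CPM.

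Part of the control trend lay in the area described above. Without the low row, low column quadrant, the deepest over shallowest log2 ratio of the mtDNA-encoded members was 0.43 (0.38 to 0.49) in place of 1.15. Within the 4 control quadrants, the deepest group of the section exceeded the shallowest by 1.64, 1.39, 1.28 and 1.36-fold. Within the 4 rIL7 quadrants the fold of deepest over shallowest was 0.892, 0.495, 1.12 and 0.679. The deepest rIL7 group was thus higher only in the quadrant of high rows and low columns. Among interior rIL7 spots the log2 ratio was 0.12 in place of -0.22, and 28.5% of the shallowest rIL7 spots were edge spots against 15.8% of the deepest. Interior spots also leave out 21 rIL7 spots off the largest piece of tissue, with 10195 CPM and a median of 6137 UMIs. The part of edge spots and of these 21 spots in the move was not tested. For the control, 20.5% of the shallowest and 30.1% of the deepest spots were edge spots.

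Spots of matched depth placed the sections side by side. Below 6000 UMIs, the mtDNA-encoded members had 1972 CPM in control and 3522 CPM in rIL7 tissue, a log2 ratio of 0.84. From 6000 to 8000 UMIs they had 1577 and 1614 CPM, a log2 ratio of 0.03 (-0.05 to 0.11). From 12000 to 15000 UMIs they had 2500.1 and 1499 CPM, and at 20000 UMIs or more 5625 and 1537 CPM, a log2 ratio of -1.87. Taken over all positions, the rIL7 section was thus higher in the shallowest spots, nearly level with the control from 6000 to 8000 UMIs, and lower above that. Position was not matched, as 62.8% of rIL7 spots below 6000 UMIs were edge spots against 32.6% of control spots. The depth classes also include spots off the largest piece of tissue, 12 in control (5040 CPM, median of 6649 UMIs) and 21 in rIL7 tissue (10195 CPM, median of 6137 UMIs). The part of edge spots and of these spots in the shallow values was not tested. Under 8000 UMIs, control and rIL7 tissue had 1456 and 1251 CPM in the interior, and 2553 and 2852 CPM at the edge. The control also exceeded the rIL7 section in deep spots without the low row, low column quadrant, where control spots of 12000 to 15000 UMIs had 2141 CPM and those of 15000 to 20000 UMIs 2558 CPM, log2 ratios of -0.51 and -0.83. The nuclear-encoded members differed by at most 0.10 on the log2 scale at any depth over all quadrants.

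**Figure D5:**
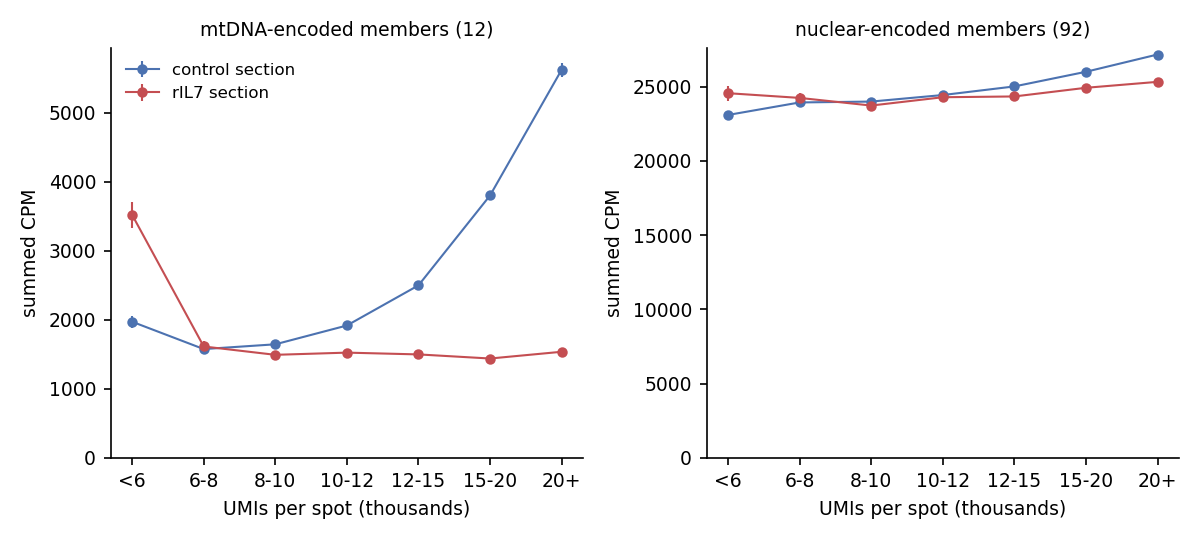
Summed CPM of the 12 mtDNA-encoded (left) and 92 nuclear-encoded members (right) is plotted against the UMIs of the spots in 7 depth classes, with 95% counting intervals. In the control section the mtDNA-encoded sum climbs from 1577 CPM at 6000 to 8000 UMIs to 5625 CPM at 20000 UMIs or more, while in the rIL7 section it stays between 1440 and 1614 CPM above 6000 UMIs.

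Edge and interior were also compared among spots of like depth. In control spots under 8000 UMIs, the edge had 2553 CPM and the interior 1456 CPM, 1.75-fold higher at the edge. In control spots of 12000 UMIs or more, edge and interior had 3638 and 3648 CPM, with a log2 ratio of 0.00 (-0.04 to 0.03). These include spots of the high control rectangle (5399 CPM, median of 17838 UMIs, 21.4% edge spots), whose part in that ratio was not tested. The rIL7 edge was higher in shallow spots (2852 and 1251 CPM) and in deep spots (2220.1 and 1328 CPM), by 2.28-fold and 1.67-fold.

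Other RNA moved with depth in the control section too. From the shallowest to the deepest group, cytosolic ribosomal protein genes went from 170281 to 201602 CPM, macrophage markers from 1904 to 2817 CPM, and nuclear-retained RNA from 1455 to 929 CPM. In the rIL7 section these went from 167207 to 189167 CPM, from 2874 to 2471 CPM and from 1195 to 1135 CPM. Edge spots of the rIL7 section held more macrophage (3804 against 2227 CPM) and T cell RNA (637 against 262 CPM) than interior spots, and T cell RNA summed to 157 CPM in the whole control and 320.3 CPM in the whole rIL7 section. Whether cell mixture, cell number or RNA quality has a part in the mtDNA-encoded values was not tested, and in spots that hold several cells fewer cells of a type and less RNA per cell cannot be told apart.

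Near its centre the control section had a patch of low nuclear-encoded share. A rectangle of array rows 30 to 42 and columns 58 to 86, drawn from the map, held 189 spots with 21475 nuclear-encoded CPM against 24996 CPM elsewhere, 1.16-fold lower. There 77 of 82 members with at least 1000 UMIs were lower and 19 past the limit, where 15.1% of such genes were. Over all 7523 such genes the median log2 ratio was -0.015. The decline was not particular to the respiratory chain genes. Mitochondrial ribosomal protein genes summed to 6581 CPM inside and 7429 CPM elsewhere, cytosolic ribosomal protein genes to 168762 and 186789 CPM, and electron carrier genes to 857 and 955 CPM. Complexes I to V were all lower in the patch, from 443 against 509 CPM for complex II to 6661 against 7748 CPM for complex IV. The mtDNA-encoded members had 1483 CPM inside and 2597 CPM elsewhere. Genes of hypoxia and glycolysis (22 genes) summed to 19619 CPM inside and 12466 CPM elsewhere, nuclear-retained RNA to 1964 and 1106 CPM, and the median spot held 6894 and 9844 UMIs. The patch was chosen for its values, so this is a description.

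Genes that serve the chain without being part of it were compared between the sections as lists. Of 32 genes of mtDNA transcription, replication and mitochondrial biogenesis, 12 were higher and 20 lower in the rIL7 section, 1 and 5 of them past the limit, with a median log2 ratio of -0.09. Among all genes with at least 20 UMIs, 7098 of 14313 were higher and 7215 lower, with 14.3% higher and 13.8% lower past the limit, so the 5 were near that share. Polrmt, the mitochondrial RNA polymerase, was at 39.3 CPM in control and 31.2 CPM in rIL7 tissue, 1.26-fold lower, and Gabpa, a factor known to activate respiratory genes, at 21.2 and 26.2 CPM, 1.24-fold higher. Of 78 mitochondrial ribosomal protein genes, which serve translation of the mtDNA messengers, 63 were lower, 3 of them past the limit (a smaller share than the 13.8% of all genes), with a median of -0.11. Mrps6 had the lowest ratio among them, at 236 and 168 CPM, 1.40-fold lower.

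The lists of fuel use and assembly are read against the same 14.3% of all genes higher and 13.8% lower past the limit. All 16 genes of the tricarboxylic acid cycle stayed within the limit, with Suclg2 highest (54.5 and 65.0 CPM) and Idh3b lowest (159 and 146 CPM). Of 17 genes of electron carriers, such as coenzyme Q enzymes, 2 were higher and 0 lower past the limit, a smaller share than of all genes. Of 30 genes of complex assembly beyond complex I, 2 were higher and 4 lower past it, near the share of all genes lower, among them Coa6, a complex IV copper factor (26.9 and 20.5 CPM). Of 17 genes of mitochondrial import, chaperones and carriers, 0 were past the limit. Of 22 genes of hypoxia and glycolysis, 20 were higher, where 7098 of 14313 genes were, and 4 past the limit, led among those with at least 1000 UMIs by Ndrg1, a gene known to respond to low oxygen (156 and 246 CPM).

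From spot to spot, the mtDNA-encoded share had a median of 0.178% in control and 0.136% in rIL7 tissue, and a highest value of 2.12% and 1.94%. The 5% of control spots with the highest share held 23.8% of the mtDNA-encoded UMIs and had a median of 17697 UMIs, with 44.1% at the edge. The corresponding rIL7 spots held 11.0%, had a median of 7302 UMIs, and 74.5% lay at the edge. By their medians, high-share spots were thus deep in one section and shallow in the other. These shares were not thinned, so those of shallow spots vary more by counting error, and spots off the largest piece of tissue were included. The nuclear-encoded share was narrow, with a median of 2.45% and 2.44%.

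With each spot thinned to 5900 UMIs, correlations were described over 2002 control and 1869 rIL7 spots, which share a library and neighbouring tissue and so are not independent. Spearman's rho between a spot and the mean of its 6 neighbours was 0.64 in control and 0.30 in rIL7 tissue for the mtDNA-encoded members (1457 and 1556 spots), and 0.40 and 0.51 for the nuclear-encoded members. The neighbour correlation was thus higher in control for the mtDNA-encoded members and higher in rIL7 tissue for the nuclear-encoded members. Thinned spots held a median of 11 mtDNA-encoded UMIs in control and 8 in rIL7 tissue. The part of counting error and of the high control area in these values was not tested. Hypoxia and glycolysis genes had a rho of -0.20 and -0.39 with the nuclear-encoded members. Over 36 pairs of single mtDNA-encoded members the median rho was 0.13 and 0.05.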

How the data were processed

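Visium sections (10 µm, poly(A) capture) of 1 control and 1 rIL7 tumor were used. The authors counted UMIs per gene and spot with Space Ranger 1.1.0 on mm10, and the deposited matrices hold raw counts for 32285 features. In-tissue flags and array positions were used as deposited. Spots with under 10% mitochondrial UMIs and over 200 genes were kept, as in the study's methods. Counts were summed over spots and divided by section totals (CPM).

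Sums have exact Poisson intervals and ratios exact binomial (Clopper-Pearson) intervals. With 1 section per group, no test was run, and a difference of 25% (larger over smaller CPM) served as limit. UMIs limit precision as the intervals show. Depth classes, quadrants and rectangles pooled spots. The mtDNA to nuclear ratio is given with no interval. The scripts were checked on simulated counts.

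Members and lists were chosen with earlier results of these data known. Named genes were every mtDNA-encoded member, isoform pairs, the extremes of each complex (at least 1000 UMIs), the 3 highest and lowest nuclear-encoded edge ratios per section, members near the minimum, and list extremes. Positions come from RefSeq (GRCm38.p6), matched for 102 of 104 members. Of 19 lists, those for fibroblasts (1910 CPM control, 2146 CPM rIL7), keratinocytes (59.3, 37.7), adipocytes (110, 143), red blood cells (3.83, 2.72) and haemoglobin (4.66, 3.73) were used for checks only.

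Alternatives were no spot filter, over 1000 genes per spot, TMM (edgeR 4.0.16) and median-of-ratios (DESeq2 1.42.0) scaling, reduced totals, interior spots, equal spot weights, thinning to 5900 UMIs, removal of muscle spots or top members, and other edge and depth limits. Python 3.11.15 with numpy 2.4.6 and scipy 1.17.1, and R 4.3.3, were used.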

Additional observations from a re-analysis of the deposited data

Results flagged for a closer look

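Over all spots, the depth trend of the mtDNA-encoded members ran in opposite directions in the 2 sections, and the difference was not tested. The log2 ratio of the deepest over the shallowest group of spots was 1.15 in control and -0.22 in rIL7 tissue for the 12 members together, 0.99 and -0.34 for mt-Co2, and 0.92 and -0.70 for mt-Nd1. Among interior spots the set had 1.28 and 0.12, so the opposite direction did not hold there. Interior spots leave out both edge spots and spots off the largest piece of tissue. Without the low row, low column quadrant the control set was at 0.43. Within the rIL7 quadrants the set was at -0.16, -1.02, 0.16 and -0.56, so the direction was not the same across that section.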

How the results depend on the processing

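No paired analysis was possible because each group had 1 section. Ratios below are log2 values, and no cause of a move was tested. For the mtDNA-encoded set between sections (-0.73 as reported) and its ratio to the nuclear-encoded set (-0.72), interior spots gave -0.85 and -0.84, equal spot weights -0.45 and -0.46, thinning -0.56 and -0.56, removal of muscle spots -0.77 and -0.75, and removal of mt-Atp6 and the top nuclear-encoded member -0.71 and -0.70. An alternative chosen after seeing the data, leaving out the low row, low column quadrant of the control, gave -0.26 and -0.27, short of the 25% limit, and turned mt-Co3 to 0.039. The nuclear-encoded set (-0.01) was at 0.00 with TMM (-0.00036), median-of-ratios (0.00037) and thinning (-0.00086), at -0.021 with reduced totals, at 0.01 with equal weights (0.0055) and at 0.01 without that quadrant (0.0053). Of nuclear-encoded members past the limit, 2 lower became 1 with TMM, 1 with median-of-ratios, 1 at a minimum of 100 UMIs, 0 with equal weights, 4 in the interior and 4 without the quadrant, and 1 higher became 0 with reduced totals and 2 with equal weights, 2 with thinning and 2 without the quadrant. The mtDNA-encoded edge ratio in the control (0.45) was 0.49 at 1 step, 0.48 at 3 steps, 0.60 with equal weights, 0.59 with thinning and 0.65 without the quadrant. In the rIL7 section (0.84) it was 1.01, 0.74 and 0.97 with equal weights, and the nuclear-encoded edge ratio there was 0.069 with thinning. The mtDNA-encoded depth ratio in the control (1.15) was 0.85 between the deeper and shallower spots, 1.28 in the interior, 0.95 with equal weights and 0.43 without the quadrant. In the rIL7 section (-0.22) it was -0.15, 0.12 and -0.41. Nuclear-encoded depth ratios between deeper and shallower spots were 0.083 and 0.041. The other 64 set values, and 362 of 410 values of 41 named genes, stayed within their counting interval or within 1.5 times the count. Counting error limits mt-Atp8, mt-Nd4l, mt-Nd5 and the rare isoforms.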

Other observations

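Small groups of spots lay off the largest piece of tissue, 12 in control and 21 in rIL7 tissue, with 470 and 1775 mtDNA-encoded UMIs. They held 5040.0 CPM and 10195 CPM of mtDNA-encoded RNA, above the edge values of both sections, and 26219 and 26794 CPM of nuclear-encoded RNA.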
